A study of Homo sapiens with 21 samples.

Results

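The 10 genes described here encode enzymes that take methyl groups off histone lysines: KDM1A, KDM2A, KDM2B, KDM3A, KDM3B, KDM4A, KDM4B, KDM5B, KDM6A and KDM6B. They were chosen by symbol, through the gene identifiers of the deposited tables, and all 10 were found among 19505 genes of the FADU knockdown table, 17232 of the BFTC909 knockdown table, 18316 of the FADU overexpression table and 15719 of the FADU METTL4 mutant table. All 10 passed the filter on low values in every table, with at least 196 reads in each library. In such bulk samples, fewer expressing cells and less RNA per cell cannot be told apart.

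Histone lysine demethylases are of 2 chemical kinds. KDM1A (LSD1) is a flavin-dependent amine oxidase that works in the CoREST complex on mono- and dimethylated H3K4, a mark of enhancers and promoters, and passes electrons to oxygen through its flavin. The other 9 carry a JmjC domain and are iron- and 2-oxoglutarate-dependent dioxygenases, the enzyme class that also holds the prolyl hydroxylases which mark hypoxia-inducible factors for degradation, and they use oxygen directly in each round of demethylation. When oxygen falls, hypoxia-inducible factors accumulate and switch on a set of genes, and several JmjC demethylase genes are known targets. METTL4, the gene manipulated in these samples, encodes an adenine N6-methyltransferase, and RP11-390F4.3 is a long non-coding RNA.

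The 21 RNA-seq libraries came from 2 human cancer lines, FADU (squamous carcinoma of the hypopharynx) and BFTC909 (transitional carcinoma of the renal pelvis), held for 18 h in 18% oxygen (normoxia) or 1% oxygen (hypoxia). In each line, cells with a control sequence (labelled Scr-si) were profiled in normoxia and in hypoxia and cells with a METTL4-targeting one (METTL4-si) in hypoxia, with 2 libraries in each group. According to the methods these knockdown cells were made by lentiviral infection and selection, which the labels do not state. FADU cells in normoxia carried a control, a METTL4 or an RP11-390F4.3 expression plasmid as stable clones, with 2 libraries each. Finally, 2 single-cell clones of FADU in which prime editing had changed the catalytic DPPW motif of METTL4, with 1 library each, were set against 1 CRISPR control library, all in hypoxia. All values are TMM-normalized CPM, read counts that the authors scaled to the size of each library. Libraries held 17800000 to 25400000 reads on genes. Nothing in the sources used here says that the libraries of a group came from separate cultures, so p-values measure the spread between these libraries. Whether the libraries of 2 groups overlapped is given as a description only. The share of all genes without overlap was not taken.

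Some libraries stood apart or went against their labels. METTL4 RNA was 26.6 and 25.3 in FADU Scr-si hypoxia and 24.2 and 27.1 in the libraries labelled METTL4-si, so the groups overlapped and no knockdown was visible at the RNA level. In BFTC909 the Scr-si hypoxia libraries held 19.0 and 15.6 and the METTL4-si libraries 14.4 and 12.2, a difference that did not pass the test (log2 fold change -0.36 ± 0.13 SE, adjusted p = 0.072 in limma). METTL4 overexpression libraries held 158 and 139 against 35.4 and 32.7 in control. RP11-390F4.3 itself was not matched to a row by symbol and its level was not checked here. FADU listed all 9 squamous epithelial markers. Of 9 urothelial markers the BFTC909 table listed 2, and 7 of 8 fibroblast markers were listed there. The summed fibroblast markers were 1252 and 1352 in BFTC909 normoxia, 4701 and 4912 in hypoxia and 2624 and 2829 in METTL4-si, and their part in the BFTC909 results was not tested. In all, 3 knockdown libraries carried markers of another cell type: of the 10 luminal breast markers, 7 were at 1 or more in FADU normoxia replicate 1 and FADU METTL4-si replicate 1, with sums of 178 and 749, whereas 3 or 4 were in the other 4 libraries of the table, with sums of 27.6 to 38.4. GATA3 among them was 41.1 in FADU normoxia replicate 1, 216 in FADU METTL4-si replicate 1 and 128 in BFTC909 METTL4-si replicate 2, against at most 3.19 in the other knockdown libraries. In BFTC909 the whole list did not single out that library: 3 of its 10 genes were listed, and their sums were highest in Scr-si hypoxia (999 and 1020) beside 314 and 533 in METTL4-si replicates 1 and 2. GREB1 of this list was 121 in BFTC909 METTL4-si replicate 2, 10.6 in replicate 1 and 1.52 to 3.20 in the other 4 libraries. GATA3 is also one of the urothelial markers, so in BFTC909 it does not by itself mark another cell type. The summed urothelial markers were 148 in BFTC909 METTL4-si replicate 2 and 23.1 in replicate 1. Some results without the 3 libraries with raised GATA3 are given with the knockdown results.

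Stretches before start sites of 5 genes, picked by their hypoxia results, are shown first. KDM3A, KDM4B and KDM5B rose in both lines, KDM6A rose in FADU, and KDM1A did not pass the test in either line. KDM2A, which rose in FADU, and KDM4A and KDM6B, which rose in BFTC909, are not shown. The part of these stretches in the response to hypoxia was not tested. Hypoxia-inducible factors recognise a short core, and the letters ACGTG and GCGTG were searched on both strands. Matches are in capitals, so that CACGT and CACGC are matches on the other strand, and CACGTG counts on both. Each line gives the 250 bases before a RefSeq start site, read 5′ to 3′ along the gene's own strand (RefSeq, GRCh38.p14).
KDM3A, chr2:86441121-86441370, plus strand: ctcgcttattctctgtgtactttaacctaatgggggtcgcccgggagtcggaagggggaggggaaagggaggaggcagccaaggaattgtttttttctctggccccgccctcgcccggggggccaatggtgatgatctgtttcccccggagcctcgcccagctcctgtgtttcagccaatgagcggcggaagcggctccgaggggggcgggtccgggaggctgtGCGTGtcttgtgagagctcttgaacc
KDM4B, chr19:4968863-4969112, plus strand: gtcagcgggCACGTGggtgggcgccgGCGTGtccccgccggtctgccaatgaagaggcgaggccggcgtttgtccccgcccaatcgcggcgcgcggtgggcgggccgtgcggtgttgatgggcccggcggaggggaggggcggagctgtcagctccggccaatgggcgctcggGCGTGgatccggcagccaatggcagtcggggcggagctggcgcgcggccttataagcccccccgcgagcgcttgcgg
KDM5B, chr1:202808422-202808671, minus strand: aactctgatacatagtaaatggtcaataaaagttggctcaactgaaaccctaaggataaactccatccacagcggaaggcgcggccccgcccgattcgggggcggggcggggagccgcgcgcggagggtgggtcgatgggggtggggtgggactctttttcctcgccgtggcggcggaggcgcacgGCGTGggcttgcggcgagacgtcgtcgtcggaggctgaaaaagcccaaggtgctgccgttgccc
KDM6A, chrX:44872938-44873187, plus strand: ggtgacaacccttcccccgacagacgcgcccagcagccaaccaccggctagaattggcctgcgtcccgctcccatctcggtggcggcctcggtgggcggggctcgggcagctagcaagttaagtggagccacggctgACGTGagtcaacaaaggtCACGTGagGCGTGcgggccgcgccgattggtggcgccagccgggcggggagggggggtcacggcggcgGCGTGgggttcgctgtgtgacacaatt
KDM1A, chr1:23019218-23019467, plus strand: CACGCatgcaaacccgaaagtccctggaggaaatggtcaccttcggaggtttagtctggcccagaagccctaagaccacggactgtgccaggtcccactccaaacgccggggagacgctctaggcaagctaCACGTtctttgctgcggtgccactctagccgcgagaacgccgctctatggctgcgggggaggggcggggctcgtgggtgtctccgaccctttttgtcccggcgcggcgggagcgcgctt

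All 10 genes matched the RefSeq promoter table, with 16 start sites in all. KDM6A held 5 matches and KDM4B 4, both including the palindrome CACGTG. KDM1A held 2, and KDM3A and KDM5B held 1 each, a GCGTG. At least 1 match lay before 12 of the 16 start sites and in 9 of the 10 genes, KDM3B being without one, whereas 43.2% of all 35116 promoters of the table held at least 1 match. ACGTG was found before 3 of the 16 start sites (KDM1A, KDM4B and KDM6A) and in 18.5% of all promoters. The 16 windows ranged from 50.4% to 83.6% GC, and the median of all promoters was 58.0%; the part of GC content in the matches was not tested. The number of matches did not order the genes by their response: KDM6A, with the most, rose by less than KDM3A, with 1.

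KDM3A, a demethylase of mono- and dimethylated H3K9, had the largest response to hypoxia of the 10 genes in FADU, and in BFTC909 it rose by about as much as KDM4B and KDM5B, the 3 lying within their SE of each other. The gene lies at chr2:86667770-86719839 on the plus strand (GRCh37, protein coding, 26 exons in the canonical transcript). In FADU it stood at 71.3 and 77.9 TMM-normalized CPM in normoxia and at 279 and 287 in hypoxia. All hypoxic libraries lay far above the normoxic ones, a 3.76-fold difference (log2 fold change 1.91 ± 0.08 SE, adjusted p = 5.3e-05 in limma), which ranked KDM3A 55th from the top of 16324 genes tested. In BFTC909 it rose from 77.5 and 76.9 to 180.0 and 188, a 2.37-fold difference (log2 1.24 ± 0.08 SE, adjusted p = 6e-05 in limma) and rank 333 of 14869. Its paralog KDM3B, which acts on the same marks, stood at 163 and 161 in FADU normoxia and at 163 and 165 in hypoxia, and at 145 and 143 against 153 and 151 in BFTC909. Neither KDM3B difference passed the test (log2 0.02 ± 0.07 SE in FADU and 0.08 ± 0.06 SE in BFTC909), with 95% intervals of -0.15 to 0.18 and -0.06 to 0.22.

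KDM4B, which removes methyl groups from trimethylated H3K9 and H3K36, also rose in both lines. It held 22.7 and 21.2 in FADU normoxia and 50.1 and 57.0 in hypoxia, and 40.5 and 43.8 against 96.7 and 102 in BFTC909. The groups did not overlap, and the log2 fold changes were 1.25 ± 0.14 SE (adjusted p = 0.0023 in limma) and 1.22 ± 0.09 SE (adjusted p = 7e-05 in limma). The related KDM4A differed between the lines. In FADU its libraries overlapped, with 114 and 128 in normoxia and 113 and 121 in hypoxia, whereas in BFTC909 it rose from 44.04 and 45.2 to 68.6 and 70.6 (log2 0.63 ± 0.07 SE, adjusted p = 0.00038 in limma).

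KDM5B, a demethylase of di- and trimethylated H3K4, rose in both lines too. It stood at 80.4 and 80.5 in FADU normoxia and at 152 and 162 in hypoxia, and rose from 36.5 and 37.5 to 88.3 and 87.4 in BFTC909. No normoxic library reached a hypoxic one, and the log2 fold changes were 0.96 ± 0.15 SE (adjusted p = 0.0061 in limma) and 1.23 ± 0.13 SE (adjusted p = 0.00039 in limma). The 2 H3K27me3 demethylases moved in different lines. KDM6A, which works with the KMT2C and KMT2D methyltransferase complexes, rose in FADU from 62.5 and 59.1 to 82.2 and 86.1 (log2 0.46 ± 0.07 SE, adjusted p = 0.005 in limma) and overlapped in BFTC909 (43.0 and 36.6 against 40.6 and 39.2). KDM6B, the inducible member of the pair, rose in BFTC909 from 8.77 and 8.47 to 15.3 and 16.6 (log2 0.82 ± 0.19 SE, adjusted p = 0.012 in limma) and overlapped in FADU (46.5 and 40.7 against 37.1 and 41.3).

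The H3K36me2 demethylases moved little. KDM2A held 318 and 323 in FADU normoxia and 376 and 379 in hypoxia, which passed the test (log2 0.23 ± 0.06 SE, adjusted p = 0.034 in limma), and 184 and 186 against 202 and 210.0 in BFTC909, which did not (adjusted p = 0.10 in limma). KDM2B, the subunit that guides a Polycomb complex to CpG islands, held 47.4 and 46.3 against 52.5 and 52.8 in FADU and 13.1 and 13.8 against 14.0 and 13.4 in BFTC909, neither past the test. KDM1A, the flavin enzyme, had hypoxic values below both normoxic ones in each line, with 110.0 and 110.3 against 100.2 and 101 in FADU and 117 and 115 against 102 and 108 in BFTC909. Its log2 fold changes of -0.13 ± 0.06 SE in FADU and -0.14 ± 0.06 SE in BFTC909 did not pass the test, with 95% intervals of -0.27 to 0.01 and -0.29 to 0.01.

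Of the 10 genes, 5 rose and 0 fell in hypoxia in each line, with KDM3A, KDM4B and KDM5B common to both. Over all genes tested, 24.4% passed the test in FADU, 11.7% higher and 12.7% lower, and 45.6% in BFTC909, 21.2% higher and 24.5% lower. The median log2 fold change of the 10 genes was 0.20 in FADU and 0.39 in BFTC909, beside -0.03 and -0.02 over all genes. All 5 calls in each line were JmjC genes, of the 9 measured. As KDM1A is the only other gene, this cannot tell the 2 enzyme kinds apart. With only the normoxia and Scr-si hypoxia libraries in the fit, 6 passed in FADU, all higher. In BFTC909 7 then passed, 6 higher and 1 lower. KDM1A was the only gene of the 10 with a negative log2 fold change in BFTC909 hypoxia (-0.14). In FADU the count of genes that passed fell without either normoxia library or either Scr-si hypoxia library. The share of all genes called in those fits was not taken. KDM3A and KDM4B passed under every alternative run. Without the 2 FADU libraries that carried other markers the log2 fold change of KDM2B was 0.18.

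**Figure D1:**
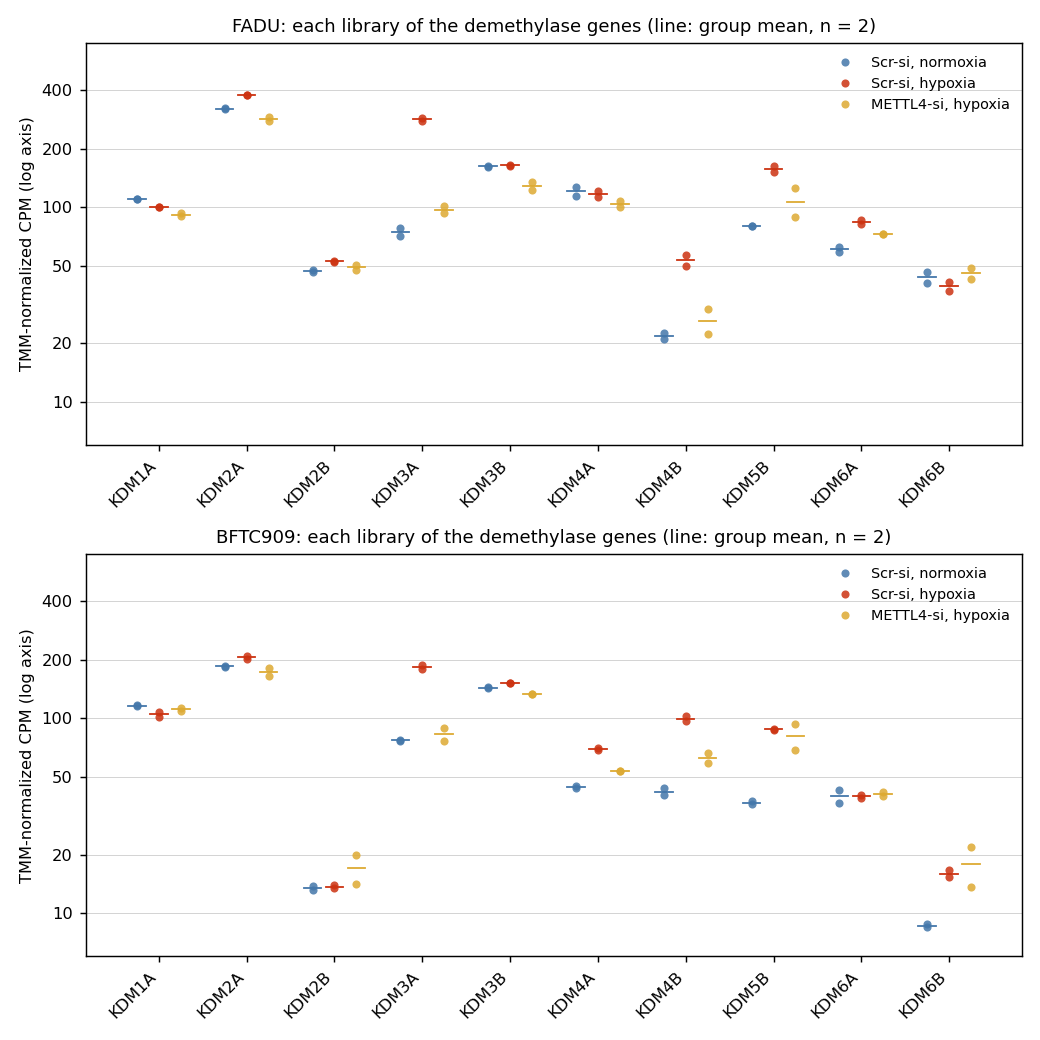
TMM-normalized CPM of the 10 genes (log axis) in each library of the knockdown tables of FADU (upper panel) and BFTC909 (lower panel); points are libraries and short lines the mean of the 2 libraries of a group. KDM3A, KDM4B and KDM5B are higher in Scr-si hypoxia than in normoxia in both panels, KDM1A lies near 100 to 117 in the Scr-si libraries of both, and KDM5B spreads widely between the 2 METTL4-si libraries of each line.

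The response to hypoxia was compared between the lines as a difference of log2 fold changes, FADU minus BFTC909. It passed the test for 4 of the 10 genes, where 25.9% of 13595 genes did. KDM3A rose by more in FADU (difference 0.67 ± 0.12 SE, adjusted p = 0.0029 in limma), and so did KDM6A (0.45 ± 0.11 SE, adjusted p = 0.016 in limma). KDM4A and KDM6B rose by more in BFTC909, with differences of -0.67 ± 0.10 SE and -0.97 ± 0.25 SE (adjusted p = 0.0016 and 0.018 in limma). For KDM1A the difference was 0.01 ± 0.08 SE with a 95% interval of -0.17 to 0.18, and for KDM4B 0.02 ± 0.18 SE with an interval of -0.38 to 0.42. The count fell without BFTC909 normoxia replicate 1 or hypoxia replicate 2. Without the 3 libraries with raised GATA3, the difference for KDM5B was -0.27.

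Hypoxia changed the order of the genes by level. Per kilobase of the canonical transcript (GENCODE on GRCh37), KDM3A took place 5 of the 10 in FADU normoxia at 16.0, behind KDM2A at 43.4, KDM1A at 35.7, KDM4A at 26.9 and KDM3B at 24.1, and place 1 in hypoxia at 60.6, ahead of KDM2A at 51.1. In BFTC909 it went from place 4, at 16.5, to place 1, at 39.4, while KDM1A went from place 1 (37.6) to place 2 (34.2). KDM2B and KDM6B were among the lowest in BFTC909, at 2.5 and 1.3 in normoxia. Neighbours in this order did not overlap between their 2 libraries in normoxia in either line. They overlapped for KDM2B and KDM4B in FADU hypoxia, for KDM3A with KDM3B and KDM6A with KDM5B in FADU METTL4-si, and for KDM2B with KDM6B in BFTC909 METTL4-si. The order depended on the length used: per kilobase of all annotated exons of a gene together, KDM3A moved from place 6 to place 3 in FADU and from place 5 to place 3 in BFTC909. Of the summed levels per kilobase of canonical transcript, KDM3A made up 8.4% and 9.0% in the FADU normoxia libraries and 24.2% and 24.1% in hypoxia, and 12.5% and 12.5% against 22.0% and 22.2% in BFTC909.

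The ratio to KDM1A within a library needs no scaling between libraries, and since it is not corrected for transcript length only its movement between libraries was read. As a log2 ratio of TMM-normalized CPM, KDM3A over KDM1A was -0.63 and -0.50 in FADU normoxia and 1.48 and 1.51 in hypoxia, and -0.59 and -0.58 against 0.81 and 0.79 in BFTC909. The ratio was higher in every Scr-si hypoxic library than in any normoxic one. KDM4B over KDM1A was -2.28 and -2.38 in FADU normoxia and -1.001 and -0.82 in hypoxia. KDM5B over KDM1A went in FADU from -0.45 and -0.46 to 0.61 and 0.69, and in BFTC909 from -1.68 and -1.62 to -0.21 and -0.31.

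**Figure D2:**
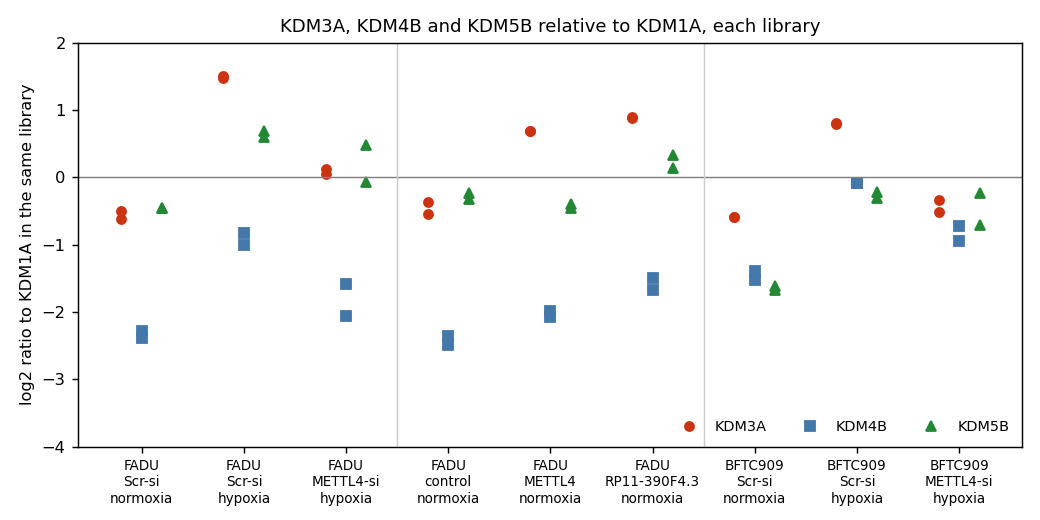
log2 ratio of KDM3A (circles), KDM4B (squares) and KDM5B (triangles) to KDM1A, both in TMM-normalized CPM of the same library, 2 libraries a group; the line at 0 marks equal values with no correction for length, and vertical lines part the tables. KDM3A lies below 0 in the normoxic controls and above it in Scr-si hypoxia and in both overexpression groups, and it lies near 0 or below in the libraries labelled METTL4-si.

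The METTL4-si libraries were set against Scr-si hypoxia. No METTL4-si group was held in normoxia, so an effect of METTL4-si particular to hypoxia cannot be told apart from a general one. The hypoxia and METTL4-si comparisons of a line also share its Scr-si hypoxia libraries. In both lines KDM3A and KDM4B were lower in METTL4-si than in Scr-si hypoxia. KDM5B, which hypoxia had raised in both, was lower in FADU and did not pass the test in BFTC909. In FADU, whose METTL4 values overlapped between these groups, KDM3A stood at 93.0 and 101 against 279 and 287 (log2 -1.53 ± 0.08 SE, adjusted p = 0.00011 in limma). KDM4B stood at 29.9 and 22.4 against 50.1 and 57.0 (log2 -1.02 ± 0.14 SE, adjusted p = 0.0028 in limma). Both genes were lower in each METTL4-si library than in either Scr-si hypoxic library. KDM5B stood at 125 in replicate 1 and 89.0 in replicate 2, both under the 152 and 162 of Scr-si (log2 -0.57 ± 0.15 SE, adjusted p = 0.024 in limma). KDM2A and KDM3B, which hypoxia had moved by 0.23 and 0.02 on the log2 scale, were lower as well, at 291 and 278 and at 135 and 123 (log2 -0.41 ± 0.06 and -0.34 ± 0.07 SE, adjusted p = 0.0036 and 0.01 in limma). KDM1A held 89.9 and 93.0, below both Scr-si values but not past the test (log2 -0.13 ± 0.06 SE, 95% interval -0.28 to 0.01).

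In BFTC909, KDM3A stood at 89.5 and 76.7 in METTL4-si against 180.0 and 188 (log2 -1.14 ± 0.08 SE, adjusted p = 0.00014 in limma) and KDM4B at 58.7 and 66.4 against 96.7 and 102 (log2 -0.66 ± 0.09 SE, adjusted p = 0.0015 in limma). KDM4A, which had risen in this line, was lower at 53.6 and 53.8 (log2 -0.37 ± 0.07 SE, adjusted p = 0.0058 in limma). KDM2A and KDM3B were lower by 0.25 and 0.19 on the log2 scale (adjusted p = 0.03 and 0.044 in limma). KDM5B and KDM6B did not pass the test: KDM5B held 69.2 and 93.7 around the 88.3 and 87.4 of Scr-si, and KDM6B 13.7 and 22.0 around 15.3 and 16.6. KDM1A, at 113 and 109.6, was above both Scr-si values, and its difference did not pass the test (log2 0.08 ± 0.06 SE, 95% interval -0.07 to 0.23).

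In each line 0 of the 10 genes were higher and 5 lower in METTL4-si, beside 15.2% higher and 19.5% lower over all genes in FADU (34.7% in all) and 15.7% higher and 16.6% lower in BFTC909 (32.3% in all). KDM2A, KDM3A, KDM3B and KDM4B were lower in both. The median of the 10 genes was -0.27 in FADU and -0.16 in BFTC909, where that of all genes was 0.02 and 0.01. The replicates that spread most were those with raised GATA3. KDM5B and KDM4B were higher in FADU METTL4-si replicate 1 than in replicate 2. KDM5B, KDM6B and KDM2B (19.9 against 14.2) were higher in BFTC909 METTL4-si replicate 2 than in replicate 1. The part of the raised markers in these values was not tested. Without the 2 FADU libraries the log2 fold changes were -0.82 for KDM5B and -1.22 for KDM4B. Without BFTC909 METTL4-si replicate 2 the log2 fold change of KDM5B was -0.34. The squamous markers of FADU also differed between the groups, with sums of 3720 and 4050 in Scr-si hypoxia and 2247 and 2505 in METTL4-si, and their part was not tested. The FADU count fell without either Scr-si hypoxia library, and the BFTC909 count fell without either normoxia or either Scr-si hypoxia library. Without FADU METTL4-si replicate 2, and likewise without BFTC909 METTL4-si replicate 1, the calls were not all lower. The share of all genes called in the fits with libraries left out was not taken.

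Against normoxia, KDM3A was raised by less in the METTL4-si cells than in the Scr-si cells in hypoxia. The fold over normoxia was 3.76 in Scr-si and 1.3 in METTL4-si in FADU (log2 0.38 ± 0.08 SE, adjusted p = 0.014 in limma), and 2.37 and 1.07 in BFTC909, the last not past the test with both METTL4-si libraries (log2 0.10) but past it without replicate 2, which carried GATA3 (log2 0.21, adjusted p = 0.0020 in limma). KDM5B differed less in BFTC909, at 2.34-fold in Scr-si and 2.15-fold in METTL4-si over normoxia. The latter was still past the test (log2 1.101 ± 0.13 SE, adjusted p = 0.00039 in limma). Without METTL4-si replicate 2 its log2 fold change over normoxia was 0.88. KDM4B lay between, at 2.33-fold and 1.47-fold in BFTC909 (adjusted p = 0.0013 in limma for the latter) and at 2.37-fold and 1.17-fold in FADU, the latter not past the test. These folds share the normoxia libraries. In FADU 2 genes were higher (KDM3A and KDM6A) and 2 lower (KDM1A and KDM3B), beside 9.92% higher and 17.6% lower over all genes (27.5% in all), and the FADU count fell to 0 without either normoxia library. KDM5B was not past the test in FADU. It went from 0.39 to 0.14 on the log2 scale without the 2 FADU libraries with markers of another cell type. In BFTC909 4 genes were higher (KDM4A, KDM4B, KDM5B and KDM6B) and 0 lower, beside 27.7% higher and 29% lower (56.7% in all). Without BFTC909 METTL4-si replicate 2, KDM2A went from -0.09 to -0.16 on the log2 scale. The lowering of KDM1A in FADU METTL4-si (log2 -0.27 ± 0.06 SE, adjusted p = 0.021 in limma) was its one call in the main fits of the knockdown tables.

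The METTL4-si effect itself differed between the lines for 1 of the 10 genes, KDM3A, which fell by more in FADU (difference -0.39 ± 0.12 SE, adjusted p = 0.034 in limma), where 25.3% of 13595 genes differed (9.79% higher and 15.5% lower). This count moved with the libraries: it was 0 without any 1 of FADU hypoxia replicates 1 and 2, BFTC909 normoxia replicates 1 and 2 or BFTC909 hypoxia replicates 1 and 2. It rose without FADU METTL4-si replicate 1 or BFTC909 METTL4-si replicate 1. The share of all genes called in these fits was not taken. Without the 3 libraries with raised GATA3, differences included -0.22 for KDM1A, -0.23 for KDM3B, -0.44 for KDM3A, -0.47 for KDM4B, -0.47 for KDM5B and 0.26 for KDM4A.

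**Figure D3:**
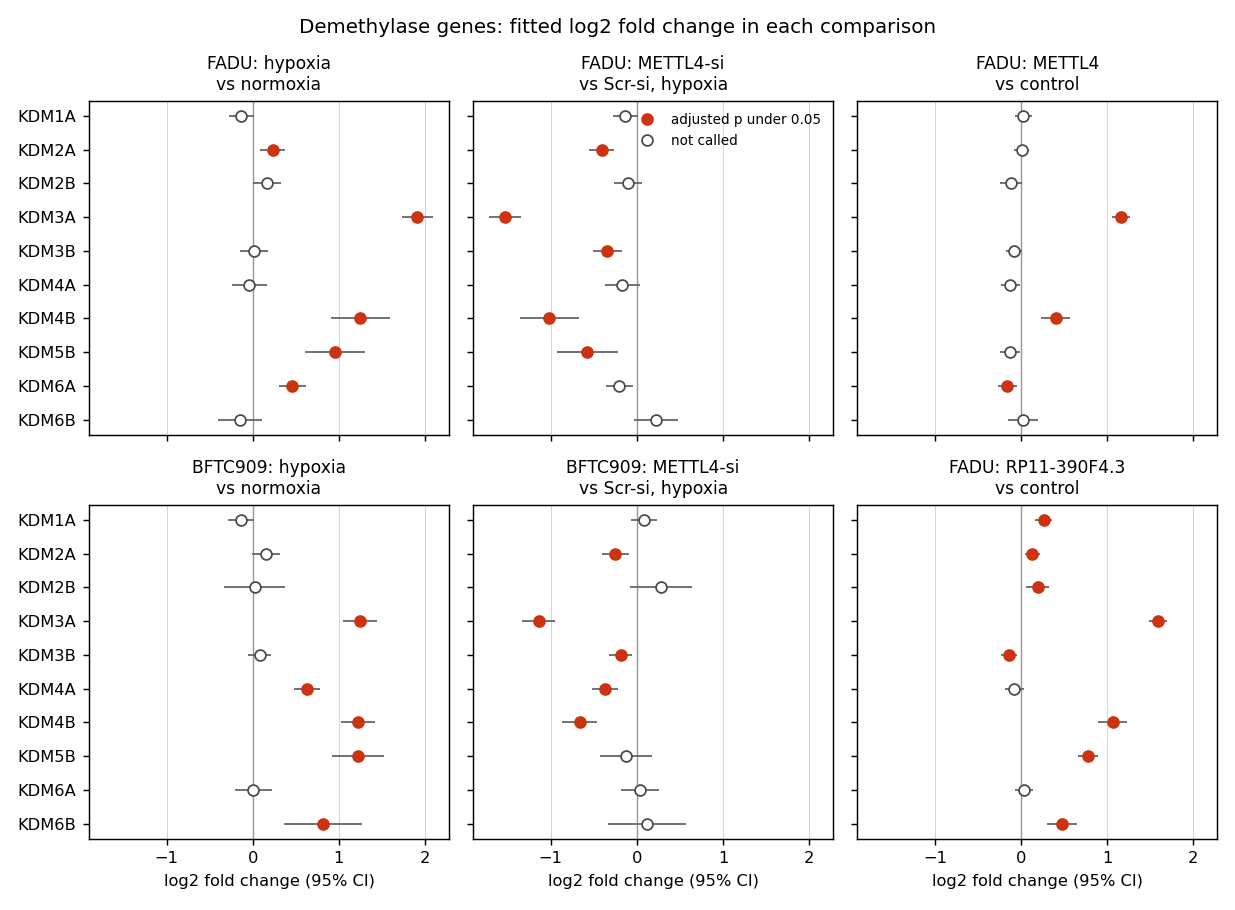
Fitted log2 fold change of the 10 genes with its 95% confidence interval in each comparison; filled points passed the test (adjusted p under 0.05 over all genes) and open points did not. KDM3A is farthest from 0 in all 6 panels, though within the SE of KDM4B and KDM5B in BFTC909 hypoxia, to the right in the hypoxia and overexpression panels and to the left in the METTL4-si panels, and KDM1A is filled only in the RP11-390F4.3 panel, at 0.26.

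Overexpression asked whether METTL4 or RP11-390F4.3 moved these genes while oxygen stayed at the normoxic level. The columns taken as RP11-390F4.3 carry another name in the table and were assigned by elimination. KDM3A stood at 74.7 and 80.6 in control, at 173 and 176 with METTL4 and at 238 and 233 with RP11-390F4.3. The 3 groups lay apart, with 2.23-fold and 3.01-fold differences from control (log2 1.16 ± 0.05 and 1.59 ± 0.05 SE, adjusted p = 5.5e-10 and 1.4e-11 in limma), ranks 141 and 123 of 15644 genes. KDM4B showed the same order of groups, with 21.1 and 18.6 in control, 25.5 and 27.7 with METTL4 and 40.8 and 44.4 with RP11-390F4.3 (log2 0.41 ± 0.08 and 1.07 ± 0.08 SE, adjusted p = 0.001 and 1.1e-07 in limma).

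KDM5B separated the 2 overexpression groups. It held 86.6 and 89.1 in control, 81.1 and 79.8 with METTL4, which was not past the test (log2 -0.13 ± 0.05 SE, 95% interval -0.24 to -0.01, adjusted p = 0.077 in limma), and 143 and 159 with RP11-390F4.3 (log2 0.77 ± 0.05 SE, adjusted p = 6.5e-08 in limma). KDM6B likewise held 33.0 and 32.5 in control, 36.9 and 29.9 with METTL4 and 45.8 and 46.3 with RP11-390F4.3 (log2 0.48 ± 0.08 SE for the latter, adjusted p = 0.00024 in limma). KDM6A was lower with METTL4, at 59.8 and 60.5 against 67.0 and 67.5 (log2 -0.16 ± 0.05 SE, adjusted p = 0.021 in limma), and stood at 68.9 and 68.5 with RP11-390F4.3. KDM1A stood at 108 and 104 in control, 107 and 109.5 with METTL4 and 129.9 and 126 with RP11-390F4.3, and the last passed the test at a small size (log2 0.26 ± 0.05 SE, adjusted p = 0.00037 in limma).

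With METTL4, 2 of the 10 genes were higher and 1 lower, beside 20.9% higher and 18.1% lower over all genes (39% in all). With RP11-390F4.3, 7 were higher and 1 lower (KDM3B), beside 28% and 24.8% (52.8% in all). Between the 2, 8 of the 10 genes were higher with RP11-390F4.3 and 0 lower, beside 28.3% and 25.8% (54.2% in all), with log2 differences from 0.13 for KDM2A to 0.90 for KDM5B. All 3 comparisons use the same 6 libraries, and the first 2 share the control libraries. Median log2 fold changes of the 10 genes were -0.04 with METTL4 and 0.23 with RP11-390F4.3, beside 0.01 over all genes in both. RP11-390F4.3 replicate 2 held 16.5 of GATA3 against 2.98 in replicate 1, and its part was not tested. The counts with METTL4 and with RP11-390F4.3 moved when single libraries were left out, and the share of all genes called in those fits was not taken.

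**Figure D4:**
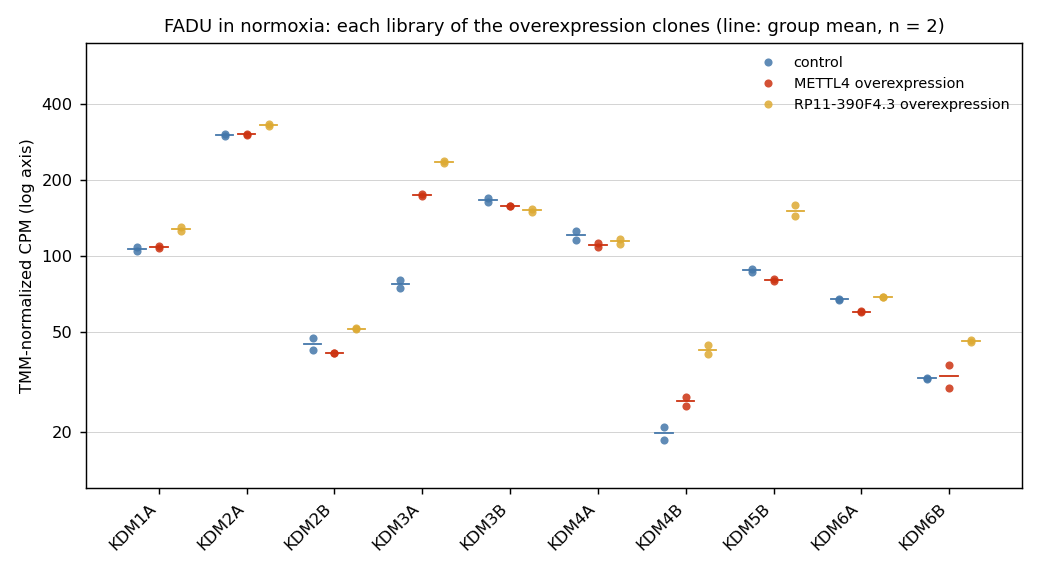
TMM-normalized CPM of the 10 genes (log axis) in each FADU library with a control, METTL4 or RP11-390F4.3 plasmid in normoxia; points are libraries and short lines the mean of 2. KDM3A climbs from control through METTL4 to RP11-390F4.3, whereas KDM5B is raised with RP11-390F4.3 and lies near 80 with METTL4.

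The METTL4 mutant clones had 1 control library, so their differences have no replicate check. Past 1.3-fold in both clones in the same direction was 1 of the 10 genes, where 22% of 13461 genes were (10.3% higher and 11.7% lower). This gene was KDM6A, at 42.1 in the control and 29.4 and 23.7 in clones 1 and 2 (log2 ratios -0.51 and -0.80). KDM3A held 135 in the control and 168 in both clones, log2 ratios of 0.31 and 0.32, so the clones lay above the control while METTL4-si libraries had lain below theirs. KDM4B held 20.8 and 22.2 in the clones beside 23.7 in their control, and KDM5B 84.7 and 79.8 beside 109. KDM1A went in opposite directions in the 2 clones, at 54.8 in the control and 67.8 and 45.4. CA9, a standard marker of the hypoxic response, stood at 10.4 and 15.2 in the clones beside 29.9 in their control, whereas SLC2A1, the glucose transporter of the same list, stood at 848 and 740 beside 867. Of the 10 standard hypoxia genes, 0 were past 1.3-fold higher and 2 lower in both clones, with a median log2 ratio of 0.01. A limma fit with the clones as replicates called 11.7% of all genes, KDM6A among them, but its spread comes from the 2 clones alone and it is no test of the control. The RNA level of METTL4 (12.5, 15.9 and 10.6) does not check an edit of a protein motif.

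**Figure D5:**
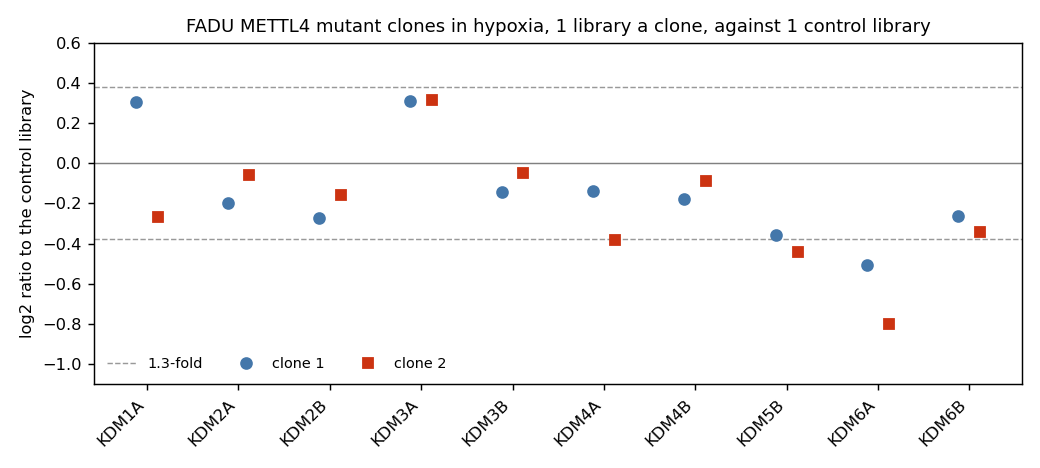
log2 ratio of each METTL4 mutant clone to the 1 control library for the 10 genes, all in hypoxia; circles are clone 1, squares clone 2, and dashed lines mark 1.3-fold. Only KDM6A lies past the same dashed line in both clones, at -0.51 and -0.80, and KDM3A lies at 0.31 and 0.32.

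Of 10 more demethylase genes, 1 was higher and 1 lower in hypoxia in FADU, and 1 higher and 2 lower of 9 tested in BFTC909. Here and for the lists that follow, 11.7% of all genes were higher and 12.7% lower in FADU hypoxia, and 21.2% and 24.5% in BFTC909. Against Scr-si hypoxia, the METTL4-si shares were 15.2% higher and 19.5% lower (FADU) and 15.7% and 16.6% (BFTC909). Overexpression gave 20.9% higher and 18.1% lower for METTL4, and 28% and 24.8% for RP11-390F4.3. No list was tested against the rest or against the 10 genes. The higher one in both lines was KDM7A, a demethylase of H3K9me2 and H3K27me2, with log2 fold changes of 1.40 ± 0.11 SE in FADU and 0.62 ± 0.10 SE in BFTC909 (adjusted p = 0.00076 and 0.0028 in limma). KDM7A was lower in FADU METTL4-si (log2 -0.67) but at -0.01 in BFTC909, and higher with METTL4 and RP11-390F4.3 overexpression (log2 0.92 and 2.82). PHF8 was lower in hypoxia in both lines (log2 -0.26 and -0.35), and KDM1B, the other flavin-dependent demethylase, fell in BFTC909 (log2 -0.51) and was at 0.36 in FADU, not past the test. The median log2 fold change of this list was -0.01 in FADU and 0.10 in BFTC909.

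The enzymes that add these marks were called about as often as all genes in hypoxia. Of 23 histone lysine methyltransferases tested, 1 was higher and 5 lower in FADU hypoxia (median log2 fold change -0.10) and 4 higher and 6 lower in BFTC909 (median -0.06). SUV39H1, which makes H3K9me3, fell in both lines (log2 -0.65 and -0.58), KMT2C, which makes H3K4me1, rose in both (log2 0.52 and 0.44), SETD1B fell in FADU (log2 -0.78) and SETD7 in BFTC909 (log2 -0.58). In METTL4-si 4 were higher and 2 lower in FADU, SETD1B among them at 0.55, and 2 higher and 5 lower in BFTC909. With RP11-390F4.3 overexpression 2 were higher and 14 lower (median -0.16), whereas with METTL4 3 were higher and 4 lower (median -0.06).

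Partner proteins of the demethylases moved in both directions. Of 11 genes of the KDM1A (CoREST) complex, 2 were higher and 0 lower in FADU hypoxia and 5 higher and 2 lower in BFTC909, led by the CoREST paralog RCOR2 (log2 1.46 ± 0.16 SE, adjusted p = 0.00047 in limma), which fell in BFTC909 METTL4-si (log2 -1.05). ZMYM2 was higher in both lines (log2 0.36 and 0.76). Of 9 genes of the KDM2B Polycomb complex 1 was higher and 1 lower in each line: RNF2 at 0.42 and BCORL1 at -0.30 in FADU, and BCOR at 0.34 and USP7 at -0.44 in BFTC909. Of 8 genes tested of the KDM6A complex, 1 was higher (KMT2C) and 1 lower (KMT2D, log2 -0.40) in FADU, and 1 higher (KMT2C) and 3 lower in BFTC909, WDR5 at -0.52 and PAXIP1 at -0.45 among them. Of 10 PRC2 genes, which write the mark that KDM6A and KDM6B remove, 0 were higher and 1 lower in FADU (PHF19, log2 -0.37) and 2 higher and 3 lower in BFTC909 (SUZ12 at -0.52, JARID2 at 0.48). In METTL4-si the counts were 0 higher and 4 lower of the CoREST genes in FADU and 1 and 1 in BFTC909, and 1 higher and 6 lower of the PRC2 genes in FADU and 1 and 2 in BFTC909.

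Genes of the cosubstrate's metabolism and other oxygen-using enzymes of the class were listed as well. Of 20 genes of 2-oxoglutarate metabolism, 1 was higher and 7 lower in FADU hypoxia (median -0.19) and 2 higher and 12 lower in BFTC909 (median -0.31). IDH3A, a subunit of the mitochondrial isocitrate dehydrogenase that makes 2-oxoglutarate, fell in both (log2 -0.53 and -1.22). GOT2 fell and IDH2 rose in BFTC909 (log2 -0.96 and 0.81). In METTL4-si 0 were higher and 9 lower in FADU, with SDHC at -0.85 and SUCLG2 at -0.73, and 1 higher and 3 lower in BFTC909. Among 7 other oxygen-sensing dioxygenases 3 were higher and 2 lower in FADU and 3 higher and 0 lower in BFTC909. EGLN3 and EGLN1, prolyl hydroxylases of hypoxia-inducible factors, rose (log2 3.70 and 1.74 in FADU, 1.28 and 0.57 in BFTC909), as did TET1, a DNA dioxygenase (log2 0.69 and 0.57). EGLN3 and EGLN1 were lower in METTL4-si (log2 -3.99 and -2.24 in FADU, -1.09 and -1.40 in BFTC909).

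A list of 10 standard hypoxia genes checked the oxygen labels. In hypoxia 9 were higher and 1 lower in FADU and 10 higher and 0 lower in BFTC909, with CA9 at 3.36 and 5.03 and NDRG1 at 4.303 and 2.18 on the log2 scale. The lower one in FADU was VEGFA (log2 -0.41), named here after its value was seen. In METTL4-si 1 was higher (VEGFA) and 9 lower in FADU and 0 higher and 10 lower in BFTC909, and all 10 were higher with METTL4 and with RP11-390F4.3 overexpression in normoxia. Among the 10 demethylase genes, KDM3A and KDM4B were called in the same direction as that majority in all 6 comparisons. These comparisons are not separate: hypoxia and METTL4-si share the Scr-si hypoxia libraries of a line, and both overexpression comparisons share the control libraries.

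By the criterion that the study used, at least 1.3-fold and an unadjusted p below 0.05, the number of the 10 genes was read beside its own background. Fold and p were taken here from the limma fits, whereas the study used edgeR. In hypoxia it was 4 in FADU, where 24.9% of all genes passed, and 5 in BFTC909, where 38.7% did. In METTL4-si against Scr-si it was 4 in FADU (32% of all genes) and 2 in BFTC909 (28.7%), the 2 being KDM3A and KDM4B. In METTL4-si against normoxia it was 1 in FADU (27.3%) and 3 in BFTC909 (49.3%). With METTL4 it was 2 (19.4%), with RP11-390F4.3 4 (29.6%), and between the 2 it was 4 (32.4%). Between the lines it was 4 for the hypoxia response (31%) and 1 for the METTL4-si effect (31.2%).

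The genes whose pattern was most like each demethylase were found by Pearson's r of log2 values over the 12 knockdown libraries, each line centred on its own mean, among 9822 genes. These libraries share their groups, so r mostly reflects the 3 conditions, and it is given as a description. For KDM3A they were ENO2 (r = 0.994), ERO1A (0.990) and P4HA1 (0.989), a glycolytic enzyme, an oxidase of the endoplasmic reticulum and a collagen prolyl hydroxylase subunit. For KDM4B they were CCNG2, PNRC1 and ARRDC3 (0.983, 0.983 and 0.982), for KDM5B KHNYN, ZNF789 and CALCOCO1 (0.980, 0.974 and 0.964) and for KDM1A NSMAF, COPS7A and DAXX (0.943, 0.933 and 0.924). For KDM2A they were CTDSP1, CMIP and ALKBH5 (0.979, 0.972 and 0.967), and for KDM6B RECQL5, HOOK2 and KATNIP (0.979, 0.970 and 0.963). The nearest genes of KDM2B, KDM3B, KDM4A and KDM6A were MFSD10 (0.949), PTP4A2 (0.972), INPP5B (0.970) and GRAMD2B (0.917). Within the 10 genes, KDM3A was nearest to KDM4B (0.928) and KDM4B to KDM3A and KDM5B (0.900), whereas KDM3A and its paralog KDM3B gave 0.440 and KDM1A gave values between -0.534 with KDM5B and 0.513 with KDM3B.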

How the data were processed

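RNA of 21 libraries was read by ribosomal-depleted, stranded RNA-seq. Per the labels and methods, the authors used Trim Galore for trimming, HISAT2 for alignment (hg19), htseq-count for counts per gene and edgeR for scaling; versions, settings and annotation are not given in the sources used here. The deposited values are this TMM-normalized signal (CPM), and every value came back as a whole number of reads. The authors' columns of fold changes and p-values were not used.

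Each table was tested with limma 3.58.1 (R 4.3.3, trended variance) on log2(value + 1), so fold changes of low genes are understated. Genes entered if 2 or more libraries reached a value of 1, the 3 groups of a table shared one estimate of the spread, and genes with a Benjamini-Hochberg adjusted p under 0.05 over all genes tested were called (2-sided). The difference between lines was an interaction term over both knockdown tables. The mutant table, with 1 control library, was described by ratios; 40.9% to 43.0% of its columns lay on no single gene and were left out. Scripts were tested on simulated data.

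Named genes were the 10 members, per list at most 4 genes with the largest change among those called in hypoxia and at most 2 in METTL4-si, and the 3 genes most alike by r. Members and lists were chosen with earlier results of these data known. Levels per kilobase used GRCh37 transcripts, and promoters the RefSeq table (GRCh38.p14). Alternatives were the pseudocount, filter, trend, centring, edgeR 4.0.16 on the recovered reads, compared groups only, a replicate block, and leaving out each library. Libraries with raised markers were left out as an alternative chosen after seeing the data.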

Additional observations from a re-analysis of the deposited data

Results flagged for a closer look

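The response to hypoxia differed between the lines in a test of the difference itself for 4 of the 10 genes, given as FADU minus BFTC909 on the log2 scale. The difference was 0.67 for KDM3A, -0.67 for KDM4A, -0.97 for KDM6B and 0.45 for KDM6A. The effect of METTL4-si in hypoxia differed for KDM3A, by -0.39. No group held 4 or more libraries, so single libraries were not tested for a gap to the rest of their group.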

How the results depend on the processing

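No called value of the 10 genes changed direction under any alternative run. KDM3A and KDM4B stayed past the test under every alternative in hypoxia, METTL4-si and overexpression. Of 52 called values, 25 stayed past the test in every alternative, and 124 of 861 alternatives of the called values lost the call; the cause was not tested. The number of the 10 genes called moved by over 1.5 times as follows. For FADU METTL4-si in hypoxia against normoxia (4) it was 0 with only the compared groups, 2 without the trend, 2 with median centring and 1 by the study's criterion. For BFTC909 METTL4-si against Scr-si (5) it was 3 with only the compared groups, 3 without the trend and 2 by that criterion. For RP11-390F4.3 against control (8) it was 5 without the trend and 4 by that criterion, and against METTL4 (8) it was 4 by that criterion. For the difference between lines of the METTL4-si effect (1) it was 0 without the trend, with centring and with edgeR, and 6 without the libraries with raised markers. For the mutant clones (1) it was 2 with centring and 0 at 2-fold. Leaving out 1 library at a time, where a lone library is assumed to vary like the other groups, gave 2 to 6 in FADU hypoxia, 2 to 8 in FADU METTL4-si, 0 to 7 for FADU METTL4-si against normoxia, 4 to 7 in BFTC909 hypoxia, 2 to 7 in BFTC909 METTL4-si, 3 to 6 for BFTC909 METTL4-si against normoxia, 2 to 5 with METTL4, 6 to 8 with RP11-390F4.3, 7 to 8 between them, 2 to 4 for the difference in hypoxia and 0 to 3 for that in METTL4-si. The replicate numbers did not pair the libraries throughout: correlations of same-numbered deviations ran from -0.065 to 0.154, except 0.648 between FADU normoxia and FADU METTL4-si, whose replicates 1 both carried luminal markers. The replicate block gave 4 for BFTC909 METTL4-si and the main count in every other comparison where it was run. It was not run for the differences between lines or for the mutant clones. With at least 196 reads for each of the 10 genes in each library, the 2 libraries a group limited precision. The share of all genes called was not taken for the fits with libraries left out, so those counts have no background beside them.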
